A study of Mus musculus with 12 samples.

Results

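The proteasome subunit genes were examined in ventral hippocampus (vHPC) and in those of its neurons that reach nucleus accumbens (NAc), in control mice (WT) and in mice with floxed FosB given Cre (KO). They were taken as the protein-coding genes of the Gencode vM1 annotation whose symbol starts with Psm, a letter from a to g and a number. The rule found 52 of the 37310 genes counted, among 22380 that are protein-coding. Core members, the Psma and Psmb genes, numbered 20. Regulatory members, the Psmc, Psmd and Psme genes, numbered 25. The other 7 were 4 Psmg genes, Psmf1, Psmc3ip and Psme2b-ps, and the last pair are no subunits in spite of their symbols.

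The proteasome is the large protease that degrades proteins marked with ubiquitin. Its barrel-shaped core has outer rings of alpha subunits (Psma) and inner rings of beta subunits (Psmb) that hold the catalytic sites. A regulatory cap of ATPases (Psmc) and non-ATPase subunits (Psmd) binds ubiquitin, unfolds the substrate and feeds it to the core, while activators (Psme) can take the place of the cap. In neurons the proteasome also shapes synapses by removing synaptic proteins, and in cells exposed to interferon catalytic beta subunits are exchanged for inducible ones that favor peptides for antigen presentation.

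All mice were of the C57BL/6 strain and carried Rosa26 eGFP-L10a, a Cre-dependent GFP fusion of a ribosomal protein, and all received HSV-hEf1α-Cre in NAc, a retrograde vector, 3 weeks before vHPC was punched. KO mice were in addition homozygous for floxed FosB, and WT mice were littermates without it. GFP-tagged ribosomes were then pulled from the punches (translating ribosome affinity purification, TRAP), so that TRAP libraries hold ribosome-bound mRNA of neurons that took up the vector, while input libraries hold RNA of the whole punch. Genotype and fraction (TRAP or input) make 4 groups of 3 libraries, and each of 6 pools of mice gave a TRAP and an input library. WT pools carry the numbers 1 to 3 and KO pools 2 to 4, the labels state 3 mice for each (the methods 3 to 4), and a label without the word input was read as TRAP. The knockout depends on Cre from the vector, and no value here shows in which cells of the punch it occurred. Age and sex were not given in the labels.

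Each library held 3416030 to 5614089 counts on genes. Levels are given as CPM, the count relative to the library's total on genes after TMM scaling, and 3 counts stood at 0.534 to 0.878 CPM before that scaling. Amplified reads are not independent molecules, so this floor covers counting error only. Fosb was at 45.3, 32 and 40.2 CPM in the WT TRAP libraries and at 29.4, 18.8 and 21.5 CPM in KO TRAP, where every library lay below every WT library. Its log2 fold change was -0.76 (SE 0.21, unadjusted p = 0.00126, adjusted p = 0.337 in the quasi-likelihood test of edgeR, adjusted after Benjamini and Hochberg). In input it was at 22.3 to 30.3 CPM in WT and 14.9 to 17.1 CPM in KO, also without overlap, and the fold change was of like size (-0.68, SE 0.22, unadjusted p = 0.00557, adjusted p = 1.00). These counts are of the whole gene, so floxed and other exons cannot be told apart in them. Of the marker lists, 6 of 7 neuron genes were higher in TRAP than in input, and 7 of 7 astrocyte, 6 of 6 oligodendrocyte, 7 of 7 microglia and 5 of 6 GABA neuron genes were lower, against 19.6% of all genes tested higher and 22.5% lower. Of 6 glutamate neuron genes, the class of the cells that project to NAc, 3 were higher (Camk2a, Neurod6 and Slc17a7) and 3 did not pass, with Grin2b at -0.11 and Wfs1 at -0.04. Of the endothelium list 2 of 6 genes had enough counts, and Flt1 was lower. Summed microglia markers ran from 5.42 to 16.4 CPM in TRAP and from 75.8 to 156 CPM in input. Genes of the mitochondrial genome took 5.29% to 9.05% of the counts in input and 0.0305% to 0.130% in TRAP, and WT input 1 had counts on fewer genes (15678) than the other input libraries (17255 to 18090). In such bulk samples, fewer cells of a type and less RNA per cell cannot be told apart, so a difference between TRAP and input is a difference in share of RNA.

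Promoters of the members were searched for motifs as a description. The part of promoters in differences between TRAP and input was not tested. RefSeq (GRCm38.p6) gave 44 promoters, each 250 bases before to 50 bases after a start site, for 41 member symbols. Psma8, Psmb1, Psmb2, Psmb7, Psmc3, Psmd3, Psmd7, Psmg2 and Psme2b-ps had no entry. Motifs were searched on both strands by their letters. TGANTCA, with any base at N, was used as a broad form of the AP-1 site bound by FosB dimers. It was in 2 of the 44 promoters (4.55%), against 7.81% of all 32851 promoters. TGACNNNGC, the antioxidant response element through which the factors Nfe2l1 and Nfe2l2 act on proteasome genes, was in 6 of the 44 (13.6%), against 12.4% of all. Both motifs were in Psmb5 and Psmd9, and the antioxidant response element alone was in Psmb6, Psmc6, Psmd12 and Psme4. The stretches of 4 of these members that the results describe are printed with the motif in capitals and 10 bases on each side where the window allowed, on the strand of the gene.
Psmb5 antioxidant response element, 47 bases before the start site, chr14:54618024-54618052: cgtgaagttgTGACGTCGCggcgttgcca
Psmb5 AP-1, base 42 after the start site, chr14:54617946-54617964: ccgatgccggTGAATCAgc
Psmb6 antioxidant response element, 9 bases before the start site, chr11:70525338-70525366: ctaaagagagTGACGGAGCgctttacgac
Psmd9 AP-1, 126 bases before the start site, chr5:123228054-123228080: aaagtggaaaTGAGTCAggataaagtg
Psmd9 antioxidant response element, 31 bases before the start site, chr5:123228149-123228177: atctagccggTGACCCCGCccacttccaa
Psme4 antioxidant response element, 7 bases before the start site, chr11:30771758-30771786: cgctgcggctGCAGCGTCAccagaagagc
In Psme4 the capitals read the motif on the opposite strand. A match of letters is a description and not a bound site.

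Of the 52 members, 46 had enough counts to be tested and 6 had not. Psma8, the alpha subunit of testis, had at most 4 counts in a library, and Psmb11, the beta subunit of thymus, at most 1. Psme2b-ps, whose symbol marks it as a copy of Psme2, had at most 7. Psmb9, the inducible beta subunit that replaces Psmb6, was listed at 0 in all 12 libraries. It has 2 entries in Gencode vM1 on chromosome 17 of mm9, from 34318932 to 34324697 and from 34318933 to 34324709, and they share 99.97% and 99.7% of their exon bases, so a read on either belongs to both and is set aside by the counting. A second entry of Psmd14 was also at 0 and lies wholly inside the first. These zeros therefore say nothing on the level of Psmb9.

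Members were also checked for reads that the counting could have lost to near-identical copies. Stretches of 75 bases from their exons were placed on mm9, and a stretch was called shared if it had another place within 2 mismatches. Psmb5 had 90.4% of its stretches shared, Psma5 55.2%, Psmc1 37.7%, Psmd2 26.7%, Psma4 25% and Psmb7 21.3%. Psme2b-ps (29 of 153 stretches), Psmb3 (16.3%), Psmb1 (14.0%), Psmc6 (10.4%) and Psme2 (10.1%) followed. No stretch was shared in 26 members, and 41 had under 10% shared. Since reads with several places were set aside, levels of these 11 may be too low. The strand setting of the counting is not given in the sources used here, so values of members with an antisense neighbour are uncertain. Psmc3ip has 21.2% of its exon bases in Mlx on the opposite strand, Psmc3 has 8.25% in Slc39a13, Psmb8 has 6.83% in Gm20496, and the other tested members at most 5.02%. On their own strand, Psmd14 shares 11.96% of its exon bases with its second entry, Psmb5 11.8% with Mir686 and Psmd1 8.07% with Armc9, and reads there are set aside as ambiguous, so levels of these 3 may be too low as well.

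Levels of the members were compared per kb of exon, which allows genes of different length to be set side by side. Psmb1, a beta subunit without a catalytic site, was highest of the 46 in all 4 groups, with 203 and 186 CPM per kb in TRAP (WT and KO) and 138 and 143 CPM per kb in input. Psmb5, which carries the chymotrypsin-like site, followed in WT TRAP with 175 CPM per kb, and Psmc1 and Psmd7 came next with 139 and 138. With the longest coding transcript as the length, Psmd4 (170) and Psmb6 (165) came after Psmb5, and Psmc1 and Psmd7 ranked 7 and 10. Per kb of exon, Psmb8 was lowest in WT TRAP with 1.71 CPM. Psmc3ip was lowest in the other groups, with 2.23 in KO TRAP, where Psmb8 followed with 2.27, and with 1.81 and 2.12 in input of WT and KO. The median core member stood at 49.8 ± 3.93 CPM per kb (SD, n = 3) in WT TRAP and the median regulatory member at 44.2 ± 3.14. In WT input the order was the other way, with 34.9 ± 2.23 for core and 37.0 ± 0.432 for regulatory members. The ratio of core to regulatory medians was 1.13 and 1.15 in TRAP (WT and KO) and 0.943 and 0.924 in input. With the length of the longest coding transcript in place of all exons, these ratios were 1.26, 1.30, 1.12 and 1.15, so core members stood above regulatory ones in input as well, and the order in input depends on the length used.

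**Figure D1:**
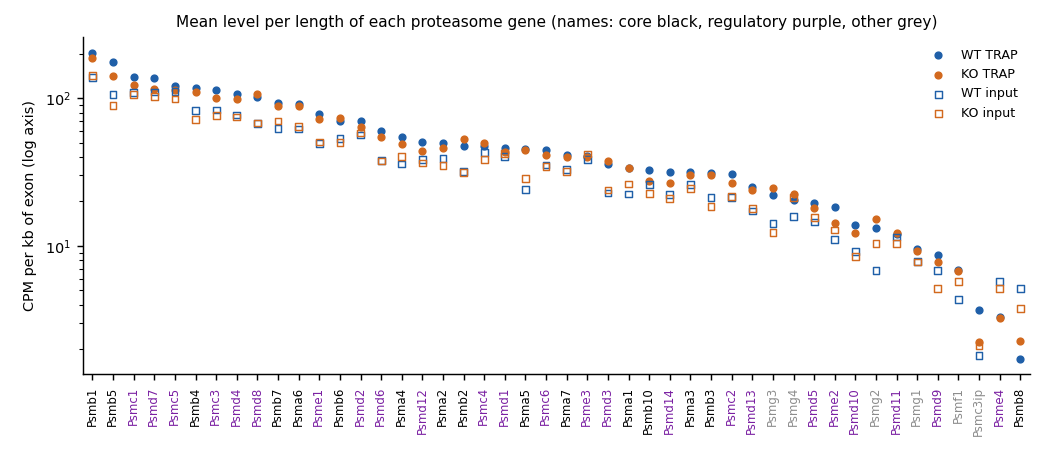
Mean level of the 46 tested proteasome genes in each group (n = 3 libraries), in CPM per kb of exon on a log axis, ordered by WT TRAP. Filled circles are TRAP and open squares input. Psmb1 leads in all 4 groups, and Psme4 and Psmb8 at the right end have their TRAP circles under their input squares in both genotypes.

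The first comparison asked which members were enriched in the ribosome-bound mRNA of the neurons projecting to NAc against the whole punch, over both genotypes. Most of the proteasome was enriched: 36 of 46 members were higher in TRAP and 2, Psme4 and Psmb8, were lower (adjusted p under 0.05 in the edgeR test, adjusted over 13214 genes). Of all genes tested, 19.6% were higher and 22.5% lower. These genes are not matched to the members for length, with a median exon length of 3764.5 bases against 2194.5 for the members. Fold changes were lower in longer genes, as given below, and the part of length was not tested. The median log2 fold change was 0.44 over the members, which is 1.36-fold, and -0.01 over all genes. In 19 of 46 members all 6 TRAP libraries lay above all 6 input libraries, against 9.88% of all genes, and in none did all lie below, against 12.6%. Summed over the members, WT TRAP 1, 2 and 3 stood at 4870, 5504 and 5277 CPM and KO TRAP 2, 3 and 4 at 4704, 5149 and 4771. The input libraries of the same pools stood at 3886, 3923 and 3908 CPM in WT and 3767, 4081 and 3669 CPM in KO. Every TRAP sum was above every input sum.

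**Figure D2:**
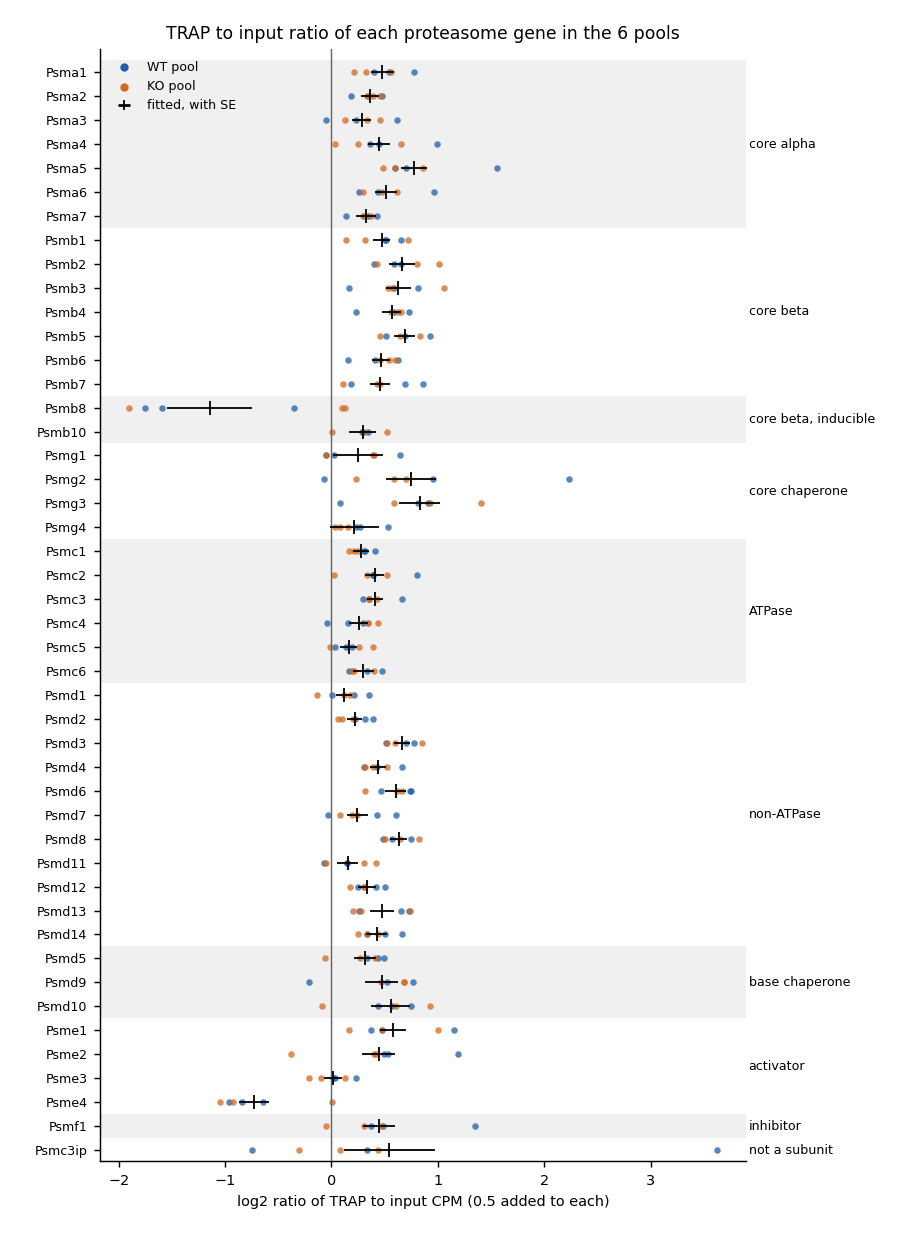
Log2 ratio of TRAP to input CPM in each of the 6 pools (blue WT, orange KO) for the 46 tested proteasome genes, with 0.5 added to each CPM, and the fitted log2 fold change with its SE in black. Shading separates the roles named at the right. Points of core beta members lie right of 0 in all pools, and Psmb8 and Psme4 are the 2 members fitted left of 0.

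Constitutive beta subunits were enriched without exception: 7 of 7 were higher in TRAP, with log2 fold changes of 0.46 to 0.69, and in each of the 7 all TRAP libraries lay above all input libraries. Psmb5 (chromosome 14 of mm9, 55232644 to 55236851) had 134, 184 and 165 CPM in the WT TRAP libraries and 159, 117 and 114 CPM in KO TRAP. In input it stood at 93.7, 96.5 and 102 CPM in WT and 89.3, 85.3 and 73.0 CPM in KO. Its log2 fold change was 0.69 (SE 0.10, adjusted p = 2.45e-06). Psmb6 and Psmb7, which carry the caspase-like and trypsin-like sites, rose by 0.46 each (SE 0.09 and 0.09, adjusted p = 9.77e-05 and 0.00026). Psmb2, a structural beta subunit, stood at 48.3 to 75.8 CPM in TRAP and 33.8 to 44.1 CPM in input, and rose by 0.66 (SE 0.12, adjusted p = 6.89e-05). These p-values are from the quasi-likelihood test of edgeR, adjusted after Benjamini and Hochberg, as are those that follow.

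Among alpha subunits, which gate the entry to the core, 7 of 7 tested were higher in TRAP, by 0.29 for Psma3 to 0.78 for Psma5. Psma5 had 63.6, 58.0 and 58.6 CPM in the WT TRAP libraries and 61.5, 59.4 and 56.3 CPM in KO TRAP. In input it stood at 21.3, 38.1 and 35.8 CPM in WT and 33.7, 39.2 and 40.2 CPM in KO. The groups did not overlap, and WT input 1 was the lowest by far. Its fold change was 1.71 (log2 0.78, SE 0.12, adjusted p = 1.17e-05), with 55.2% of its stretches shared. In 2 of the 7 alpha subunits the TRAP libraries lay wholly above the input libraries.

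Regulatory members were mostly enriched as well, with 19 of 24 tested higher and 1 lower. Of the ATPases, which form the ring that unfolds substrates, 5 of 6 were higher in TRAP, by 0.26 for Psmc4 to 0.41 for Psmc2 and Psmc3, and Psmc5 did not pass (0.16, SE 0.08, adjusted p = 0.125). Of the non-ATPase subunits 9 of 11 were higher. Psmd3, a scaffold subunit of the lid, stood at 173 to 209 CPM in TRAP and 107 to 122 CPM in input without overlap (log2 0.66, SE 0.08, adjusted p = 7.97e-08). Psmd8, also of the lid, rose by 0.63 (SE 0.08, adjusted p = 3.63e-07) and Psmd6 by 0.60 (SE 0.09, adjusted p = 9.79e-06), and both rose in 6 of 6 pools. The large scaffold subunit Psmd1 and the lid subunit Psmd11 did not pass, at 0.12 (SE 0.07, adjusted p = 0.212) and 0.15 (SE 0.10, adjusted p = 0.22). Psmd5, Psmd9 and Psmd10, chaperones that help to build the base of the cap and leave it afterwards, were each higher, by 0.32 to 0.56.

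Of the inducible beta subunits, which replace the catalytic ones, Psmb8 was lower in TRAP and Psmb10 did not pass. Psmb8 (chromosome 17 of mm9, 34334666 to 34338399), the counterpart of Psmb5, had 5.35, 2.59 and 6.12 CPM in the WT TRAP libraries and 4.47, 8.06 and 6.12 CPM in KO TRAP. In input it stood at 19.2, 3.45 and 19.4 CPM in WT and 18.1, 7.35 and 5.68 CPM in KO. WT input 1, WT input 3 and KO input 2 were above all other libraries, whereas the remaining 3 input libraries lay among the TRAP libraries. The fitted log2 fold change was -1.15 (SE 0.40, adjusted p = 0.0281), with TRAP lower in 4 of 6 pools. Without WT 1 it was -1.05 (adjusted p = 0.131), without WT 3 -1.09 (adjusted p = 0.0755) and without KO 2 -0.71 (adjusted p = 0.167). Psmb10, the counterpart of Psmb7, stood at 31.8 to 43.7 CPM in TRAP and 25.6 to 35.6 CPM in input, with overlap, and did not pass (0.29, SE 0.12, adjusted p = 0.0587). It did with the pool as a replicate block (0.30, adjusted p = 0.048), with total counts in place of TMM (0.32, adjusted p = 0.0385) and without KO 2 (0.38, adjusted p = 0.0376).

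Genes of class I antigen presentation and microglia markers were set beside Psmb8. B2m, the light chain of class I molecules, stood at 84.7, 24.1 and 69.0 CPM in WT input 1, 2 and 3 and at 86.2, 50.8 and 21.2 CPM in KO input 2, 3 and 4. The 3 input libraries with the most Psmb8 thus also had the most B2m. The summed class I list of 8 genes stood at 245, 225 and 285 CPM in those 3 and at 99.9, 180 and 107 CPM in the others. Summed markers of microglia, immune cells of the brain that express Psmb8 and class I genes, stood at 131, 120 and 156 CPM in the same 3 and at 75.8, 94.4 and 88.3 CPM in the others. Of the microglia markers, Csf1r and Ctss were each higher in those 3 input libraries than in the others. Aif1, C1qa, Cx3cr1, P2ry12 and Tmem119 were not, and P2ry12 was highest in WT input 2, at 9.19 CPM. In TRAP, P2ry12 was at 0 in 5 of 6 libraries and Tmem119 in 3. Of the class I list 2 of 8 genes, B2m and H2-K1, were lower in TRAP (log2 -1.61 and -1.71, adjusted p = 0.0183 and 0.0305) and none was higher, a share near the 22.5% of all genes called lower. The part of microglia in the Psmb8 result was not tested.

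The activators, which open the core without ubiquitin, split. Psme1 and Psme2, the partners of the interferon-inducible activator, are neighbours on chromosome 14 of mm9 (56196960 to 56200366 and 56206278 to 56209950) and were both higher in TRAP. Psme1 stood at 154 to 185 CPM in TRAP and 79.8 to 144 CPM in input without overlap (log2 0.58, SE 0.12, adjusted p = 0.000714). Psme2 stood at 20.7 to 34.2 CPM in TRAP and 14.7 to 27.1 CPM in input, and KO TRAP 2 and KO TRAP 4, at 20.7 and 25.2 CPM, lay inside the input range (0.45, SE 0.15, adjusted p = 0.0212). The Psme2 call was lost without WT 2, KO 3 or KO 4 (adjusted p = 0.117, 0.0936 and 0.0752). Psme3, the nuclear activator, stood at 107 to 130 CPM in TRAP and 105 to 130 CPM in input, a difference of 0.02 (SE 0.09, adjusted p = 0.909).

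Psme4 (chromosome 11 of mm9, 30671726 to 30780361), the large single-chain activator, was the other member lower in TRAP beside Psmb8. It had 27.8, 32.5 and 22.1 CPM in the WT TRAP libraries and 24.3, 34.9 and 22.8 CPM in KO TRAP. In input it stood at 50.4, 51.2 and 43.5 CPM in WT and 46.6, 34.7 and 47.6 CPM in KO. All input libraries except KO input 3 lay above all TRAP libraries, and KO input 3 lay at the level of its own TRAP library. The log2 fold change was -0.73 (SE 0.14, adjusted p = 0.000108), TRAP was lower in 5 of 6 pools, and no stretch of its exons was shared. The call held without any pool, with values of -0.89 to -0.60. Psme4 has the longest exons of the members, with 8382 bases. Across the 46 members the log2 fold change was lower in longer genes (Spearman's rho -0.40), as it was across the 13214 genes tested (-0.24); these points share the same 12 libraries and are not independent, and the part of length was not tested.

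**Figure D3:**
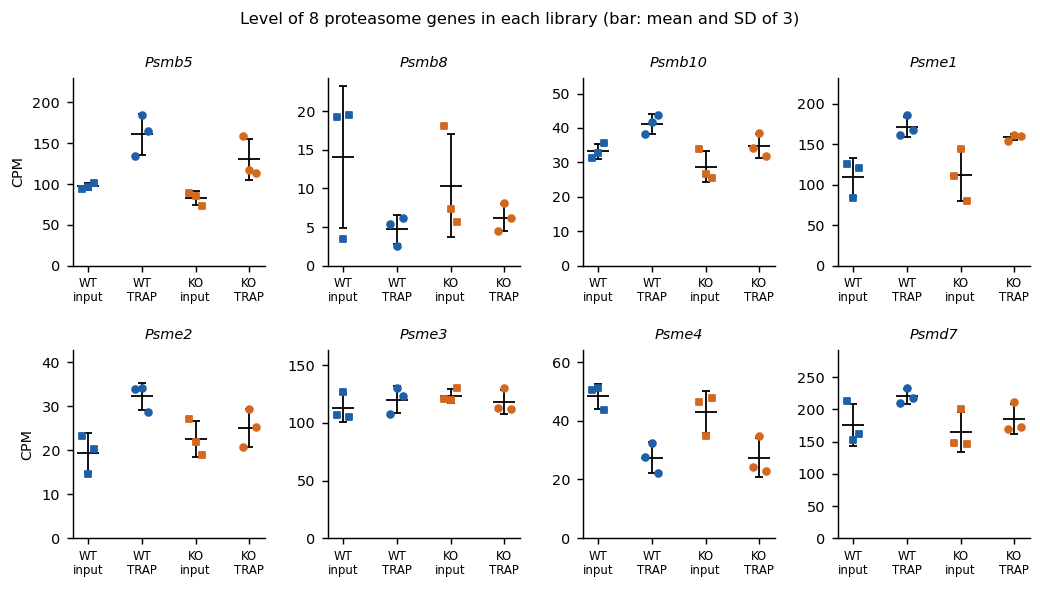
Level of 8 proteasome genes in each library, in CPM from 0, with circles for TRAP, squares for input, blue for WT, orange for KO, and the mean and SD of 3 libraries in black. Psmb5 and Psme1 lie higher in TRAP, Psme4 lies lower apart from KO input 3, Psmb8 is high in 3 of 6 input libraries, and Psme3 is level.

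Assembly factors of the core were enriched in part. Psmg3, a chaperone of the alpha ring, was the most enriched member, with 19.2, 13.7 and 22.9 CPM in WT TRAP and 19.6, 26.1 and 16.6 CPM in KO TRAP. In input it stood at 10.8, 12.9 and 11.9 CPM in WT and 12.8, 9.57 and 8.52 CPM in KO, under every TRAP library. Its fold change was 1.78 (log2 0.83, SE 0.19, adjusted p = 0.00104). Psmg2 rose by 0.74 (SE 0.23, adjusted p = 0.012), with 1 pool, WT 3, at -0.07 and another, WT 1, at 2.23. Psmg1 and Psmg4 did not pass, at 0.25 (SE 0.24) and 0.22 (SE 0.23). Psmf1, an inhibitor of the core in vitro, stood at 39.8 to 51.7 CPM in TRAP and 16.0 to 41.3 CPM in input (0.45, SE 0.15, adjusted p = 0.0166), and the call was lost without KO 2 (adjusted p = 0.0733). Psmc3ip, a protein of meiotic recombination, did not pass (0.54, SE 0.42, adjusted p = 0.324), and its value was -0.12 without WT 1, the pool in which it went from 0.582 CPM in input to 12.8 CPM in TRAP. Without WT 2 it was 1.18 (adjusted p = 0.0385).

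Core and regulatory members were then compared with each other by their median ratio of TRAP to input. The median log2 fold change was 0.47 for the 16 core members tested and 0.37 for the 24 regulatory ones. Within pools, core medians of the log2 ratio ran from 0.39 to 0.61 and regulatory medians from 0.28 to 0.45, and core was above regulatory in 6 of 6 pools by 0.06 to 0.20. The gap was smaller without the members whose reads are partly shared. Among those with under 10% of their stretches shared, 10 core and 20 regulatory, the medians were 0.41 and 0.41, and core was above regulatory in 3 of 6 pools, by -0.08 to 0.13. The selection under 10% was made after the data were seen. It also removed short core members such as Psmb5 and Psmb1, with 922 and 1036 bases of exon, and over the 16 core members the log2 fold change was lower in longer genes (Spearman's rho -0.63, a description over genes of the same libraries). Of the core it took out Psma4, Psma5 and the constitutive Psmb1, Psmb3, Psmb5 and Psmb7, and kept the inducible Psmb8 and Psmb10. The parts of shared reads, of length and of this change of subunits in the gap were not tested. Core lay below regulatory in all 3 WT pools of this selection and above in all 3 KO pools. Of the 9 genes of the COP9 signalosome, a complex built like the lid of the cap, 7 were higher and 0 lower. Their median was 0.34, and over all genes tested 19.6% were higher and 22.5% lower.

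**Figure D4:**
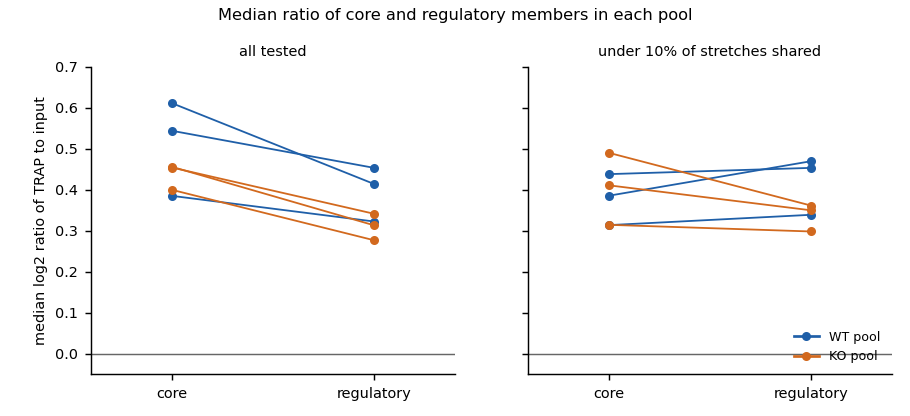
Median log2 ratio of TRAP to input CPM of core and of regulatory proteasome genes in each pool (blue WT, orange KO, lines join a pool). On the left, with all tested members, core is higher in 6 of 6 pools, and on the right, with members under 10% shared, in 3 of 6, the KO pools.

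Partners of the proteasome were taken from a list of 28 genes. In TRAP against input, 16 were higher, 3 were lower and 9 did not pass, with a median log2 fold change of 0.37. Shares over all genes tested were 19.6% higher and 22.5% lower. Pomp, which matures the core, rose by 0.48 (adjusted p = 8.73e-05), and the cap-bound deubiquitinases Usp14 and Uchl5 by 0.44 and 0.44 (adjusted p = 0.000921 and 0.0029). Adrm1, a ubiquitin receptor of the cap, rose by 0.34 (adjusted p = 0.00734), while the small lid subunit Shfm1 stood at 0.04 (adjusted p = 0.764). Nfe2l1, the factor that raises proteasome genes when the proteasome is impaired, was lower in TRAP (log2 -0.31, adjusted p = 0.00162), at medians of 203 CPM in WT TRAP and 245 CPM in WT input. Nfe2l2, the related factor of oxidative stress, was also lower (-2.71, adjusted p = 9.67e-06), at medians of 1.18 and 8.96 CPM. The remaining gene lower in TRAP was AI314180 (-0.41, adjusted p = 0.000776), named after its value was seen.

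In WT alone, 24 of 46 members were higher in TRAP and 1 lower, against 11.8% and 13.1% of the 12426 genes tested. In KO alone, 22 were higher and 1 lower, against 13.2% and 15.9% of 12463 genes. The member lower in each was Psme4, at -0.80 in WT (SE 0.19, adjusted p = 0.00487) and -0.66 in KO (SE 0.19, adjusted p = 0.012). Without pool 3 the number higher in WT was 6, and without pool 2 it was 11, while the share of all genes called higher was 3.82% and 6.23%. In KO it was 8 without pool 4 and 14 without pool 2, with 5.77% and 8.23% of all genes. The difference of enrichment between genotypes, tested directly, passed for 0 of 46 members (0.00757% of all genes) and had an unadjusted p under 0.05 for none (2.71% of all genes). DESeq2 also called 0 and also had none at an unadjusted p under 0.05. The smallest unadjusted p was that of Psme2 (0.0682), with a difference of -0.59 in the log2 ratio of TRAP to input, KO minus WT (SE 0.31).

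The study's central comparison was KO with WT in TRAP, which asks what loss of FosB changes in neurons projecting to NAc. No member passed: 0 of 46 were called, against 0.0682% of the 11727 genes tested, and the smallest adjusted p was 0.784. DESeq2 called 0 as well and had 1 member at an unadjusted p under 0.05. Differences were small, with a median log2 fold change of -0.09 over the members, -0.05 for core and -0.11 for regulatory members, and a median SE of 0.13. Without WT TRAP 1 the medians of core and regulatory members were -0.17 and -0.18. An unadjusted p under 0.05 was found for 2 members, both lower in KO (3.37% of all genes), and for none higher (2.68% of all genes). In 4 regulatory members, Psmc1, Psmc5, Psmd12 and Psmd14, all KO TRAP libraries lay below all WT TRAP libraries, against 6.12% of all genes, and in none did they lie above, against 5.74%. Psmc5 and Psmd12 were named for this after their values were seen.

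The 2 members were Psmd7 and Psmb5. Psmd7 (chromosome 8 of mm9, 110104281 to 110112382), the lid subunit that pairs with the deubiquitinase Psmd14, had 209, 234 and 218 CPM in the WT TRAP libraries and 170, 212 and 173 CPM in KO TRAP. KO TRAP 3 lay inside the WT range and the other KO libraries under it (log2 -0.25, SE 0.11, unadjusted p = 0.0267, adjusted p = 0.784). Psmb5 stood at the values given above, with KO TRAP 2 inside the WT range (-0.31, SE 0.14, unadjusted p = 0.0421, adjusted p = 0.809), and 90.4% of its stretches are shared. Next came Psmc2, an ATPase, at -0.21 (SE 0.11, unadjusted p = 0.0716) and Psmd14 at -0.24 (SE 0.13, unadjusted p = 0.0802). Psmd14 stood at 83.4 to 94.0 CPM in WT TRAP and 66.8 to 81.3 CPM in KO TRAP.

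In the other direction, Psmb2, Psmb8, Psmg2 and Psmd8 had the smallest p-values and none came near the threshold. Psmb2 stood at 48.3 to 69.5 CPM in WT TRAP and 56.8 to 75.8 CPM in KO TRAP (log2 0.17, SE 0.16, unadjusted p = 0.317). Psmb8 was at 0.41 (SE 0.48, unadjusted p = 0.401), Psmg2 at 0.20 (SE 0.28) and Psmd8 at 0.07 (SE 0.11), and the groups overlapped in all 4. Psmg2 was at -0.09 without KO TRAP 3. Of the 7 neuron markers, 0 passed and 7 were fitted lower in KO TRAP, with a median of -0.11 and summed levels of 10415 to 10925 CPM in WT TRAP and 9074 to 9983 CPM in KO TRAP. Of the members 36 of 46 were fitted lower in KO TRAP, against 50.5% of all genes, and the part of the neuron markers in this was not tested. The summed GABA neuron markers reached 566 CPM in KO TRAP 2, the highest of the TRAP libraries.

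**Figure D5:**
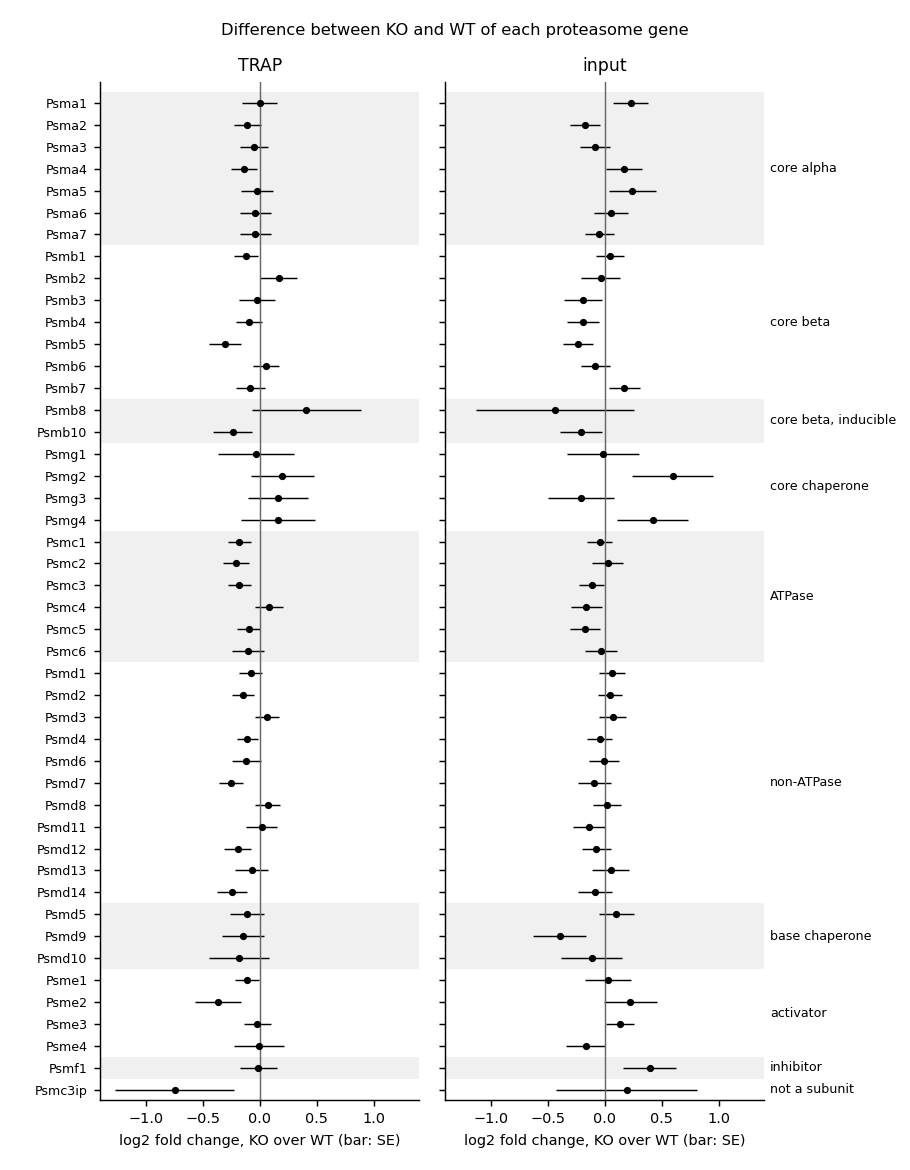
Log2 fold change of KO over WT with its SE for the 46 tested proteasome genes, in TRAP on the left and input on the right, with shading by role. In TRAP 36 of 46 points lie left of 0 and in input 26 of 46 (50.5% and 50.0% of all genes), and no member passed the test in either.

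In input, 0 of 46 members differed between KO and WT (0.0312% of the 12816 genes tested), and none had an unadjusted p under 0.05 (2.89% of all genes). DESeq2 gave 0 on both counts. The median log2 fold change was -0.03. Smallest among the members fitted lower were the p-values of Psmb5 (-0.24, SE 0.13, unadjusted p = 0.0862), Psmd9 (-0.40, SE 0.23, unadjusted p = 0.107) and Psmb4 (-0.19, SE 0.14, unadjusted p = 0.184). Psmb5 was the member with all KO input libraries, 73.0 to 89.3 CPM, under all WT input libraries, 93.7 to 102 CPM, a pattern found in 4.18% of all genes, and no member had the opposite pattern (4.2% of all genes). Among those fitted higher they were Psmf1 (0.39, SE 0.23, unadjusted p = 0.109), Psmg2 (0.60, SE 0.35, unadjusted p = 0.11) and Psma1 (0.23, SE 0.15, unadjusted p = 0.157). Psmf1 and Psmg2 were both low in WT input 1, at 16.0 and 3.78 CPM, the input library with the fewest genes counted.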

How the data were processed

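The authors aligned reads with TopHat to mm9 and used HTSeq-count and Gencode vM1 to obtain counts of reads on each gene. They deposited these counts without normalization or filtering, 1 library at a time. Reads with several places (3438372 to 6518589 alignments per library) were set aside. The kit was stranded, and the strand setting of the counting is not given in the sources used here.

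Counts were fitted in R 4.3.3 with edgeR 4.0.16 (filter on expression by group, TMM, robust quasi-likelihood test) over all genes that passed the filter, and p-values were adjusted by Benjamini-Hochberg over these. The SE is the size of the log2 fold change over the square root of F. Genotypes were compared within TRAP and within input, and TRAP with input over both genotypes, in each genotype, and as an interaction in all 12 libraries. Ratios within a pool used log2(CPM + 0.5). Depth was 3416030 to 5614089 counts, and no 2 libraries of a group were copies. The main fit had no term for the pool, so the pairing of TRAP and input libraries was not used in it. P-values measure the spread between libraries of a group, each from another pool.

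TRAP and input libraries of a pool come from the same animals, and their deviations from the group means correlated at 0.06 to 0.11. KO and WT share the numbers 2 and 3 without sharing mice (-0.07 to 0.003).

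The members and gene lists were chosen with earlier results of these data known. Members named were the 6 with the largest change in each direction among those called between TRAP and input, the 4 (TRAP) and 3 (input) of lowest p for either direction between genotypes, the inducible subunits and their counterparts, Psme, Psmf and Psmg genes, Psmc3ip, the highest and lowest per kb of exon, and those not tested. Fosb, Nfe2l1, Nfe2l2, Pomp, Adrm1, Shfm1, Usp14 and Uchl5 were named beside them, and other members were chosen as examples of their role after their values were seen. Stretches of 75 bases, every 5 bases, were placed with minimap2 2.31. Alternatives were RLE, total counts, no filter, a mean of 10 counts, no mitochondrial genes, DESeq2 1.42.0 (the authors name DESeq2 without a version), no robust estimation, all 12 libraries, a replicate block, leaving out each library or pool, and the longest coding transcript. The fit was also run on simulated counts, drawn for each library on its own without pool effects or shared reads. Nothing is concluded from that run here.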

Additional observations from a re-analysis of the deposited data

Results flagged for a closer look

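Among members with under 10% of their stretches shared, the gap between the core and the regulatory median of the log2 ratio of TRAP to input had opposite signs in the genotypes. It was -0.03, -0.08 and -0.02 in WT pools 1, 2 and 3 and 0.02, 0.13 and 0.06 in KO pools 2, 3 and 4, a difference of 0.11 between the means. The difference was not tested, the selection was made after the data were seen, and with all tested members the gap was positive in 6 of 6 pools.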

How the results depend on the processing

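The count of 38 members called between TRAP and input stayed within 32 to 39 under every alternative, and core and regulatory medians stayed at 0.43 to 0.51 and 0.33 to 0.39 when pools were left out. With the pool as a replicate block, 39 were called, Psmb10 among them, and medians were 0.47 and 0.37. With pools left out in turn, members called ran from 6 to 25 (higher from 6 to 24) in WT and from 8 to 18 (higher from 8 to 17) in KO, lowest without WT 3 and KO 4. No alternative called a member between genotypes or for the difference of enrichment. Members with an unadjusted p under 0.05 between KO and WT in TRAP numbered 1 in place of 2 with total counts only, with DESeq2 and with all 12 libraries, and 0 to 3 with libraries left out (0 without WT TRAP 2 or KO TRAP 4). In input they numbered 1 in place of 0 without a filter and with the replicate block, and 0 to 2 with libraries left out. For the difference of enrichment they numbered 0 to 3, with 3 without WT 1. Over all genes, 221 were higher and 255 lower at that p without WT 1, of 13473, against 198 and 160 of 13214 in the main fit. Between KO and WT in TRAP these numbers were 520 and 475 of 12057 without WT TRAP 1, against 314 and 395 of 11727. Values that changed sign belonged to members that did not pass: Psmg2 between KO and WT in TRAP (-0.092 to 0.34, negative without KO TRAP 3), Psmc3ip (-0.12 to 1.18, negative without WT 1) and Psme3 (-0.020 to 0.080, negative without WT 3 or KO 3) between TRAP and input. The ratios of core to regulatory medians per kb became 1.26, 1.30, 1.12 and 1.15 (TRAP of WT and KO, then input of WT and KO) with the longest coding transcript. The causes of these changes were not tested. With 3 pools a group, the median SE of a member between genotypes was 0.13 on the log2 scale in TRAP and 0.14 in input, so differences of that size were not detectable.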
